A study of Mus musculus with 10 samples.

Results

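The Frizzled receptor genes Fzd1 to Fzd9 were followed across 10 RNA sequencing libraries of mouse intestinal cells. They were taken from the deposited count table by gene symbol, 1 representative transcript for each gene, and all 9 were present among 18594 genes. The study asked where the Wnt signals that support intestinal crypts come from, and the Frizzled genes encode the receptors for those signals. Foxl1 positive cells (n = 3 libraries) were sorted from mesenchyme of Foxl1Cre mice of mixed strain, with a Rosa-YFP reporter in replicates 1 and 2 and a Rosa-mTmG reporter in replicate 3. Foxl1 negative cells (n = 3) came from Foxl1Cre; Rosa-mTmG mice of mixed strain, so the controls carried Cre as well. Lgr5 positive cells (n = 2, replicate 1 male and replicate 2 female) carried the allele that the labels spell Lr5-EGFP-IRES CreERT2, on a mixed strain. Differentiated epithelium (n = 2) came from wild type C57BL/6J mice. A Cre reporter marks cells in which the Cre was active and their descendants, so the sort did not read Foxl1 transcript itself. Strain, allele and group cannot be told apart in the comparisons with the wild type epithelium.

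Frizzled proteins are receptors with 7 membrane-spanning helices whose extracellular cysteine-rich domain binds Wnt proteins. Together with Lrp5 or Lrp6 they pass the signal through Dishevelled to stabilise beta-catenin, and with Ror, Ryk or Ptk7 they signal through other branches such as planar cell polarity. In the intestinal crypt, Wnt signals maintain stem cells at the base, the ubiquitin ligases Rnf43 and Znrf3 remove Frizzled from the cell surface, and R-spondins acting through Lgr receptors counter that removal. By sequence the family falls into Fzd1, Fzd2 and Fzd7, then Fzd5 and Fzd8, then Fzd3 and Fzd6, and then Fzd4 and Fzd9.

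The sequences before the transcription start of 4 members are shown because these genes took different paths across the groups. Fzd7 was higher in Lgr5 positive cells than in differentiated epithelium, Fzd4 was lower there, Fzd5 did not differ past the threshold between them, and Fzd1 had its highest levels in Foxl1 positive cells. Each window holds the 250 bases before the RefSeq gene start on build GRCm38.p6, written 5′ to 3′ on the gene's strand in lower case, and capitals mark a TATAAA match. As a check of place and strand, bases shortly after the start were searched in annotated transcripts of the gene. They were found for Fzd4, Fzd5 and Fzd9 but not for Fzd1 and Fzd7, whose windows did not pass this check. RefSeq promoter entries, matched by symbol, were used for 5 of the 9 members (Fzd1, Fzd4, Fzd5, Fzd7 and Fzd9). No window of the other members was examined, which does not mean that they lack a promoter entry.
Fzd7, chr1:59481897-59482146, plus strand: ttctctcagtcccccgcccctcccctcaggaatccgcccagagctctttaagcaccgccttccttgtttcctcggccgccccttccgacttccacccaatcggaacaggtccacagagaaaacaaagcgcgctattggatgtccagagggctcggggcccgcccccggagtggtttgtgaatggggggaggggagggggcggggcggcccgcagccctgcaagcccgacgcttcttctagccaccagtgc
Fzd4, chr7:89404116-89404365, plus strand: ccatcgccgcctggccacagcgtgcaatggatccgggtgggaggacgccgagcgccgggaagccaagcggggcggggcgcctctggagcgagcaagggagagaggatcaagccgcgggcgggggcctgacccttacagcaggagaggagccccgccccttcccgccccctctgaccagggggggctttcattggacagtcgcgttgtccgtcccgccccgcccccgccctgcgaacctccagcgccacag
Fzd5, chr1:64737751-64738000, minus strand: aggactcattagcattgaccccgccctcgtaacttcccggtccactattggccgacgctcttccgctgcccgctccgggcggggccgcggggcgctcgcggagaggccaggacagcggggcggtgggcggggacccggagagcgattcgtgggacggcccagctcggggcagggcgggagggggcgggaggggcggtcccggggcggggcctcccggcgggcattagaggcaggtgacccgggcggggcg
Fzd1, chr5:4758217-4758466, minus strand: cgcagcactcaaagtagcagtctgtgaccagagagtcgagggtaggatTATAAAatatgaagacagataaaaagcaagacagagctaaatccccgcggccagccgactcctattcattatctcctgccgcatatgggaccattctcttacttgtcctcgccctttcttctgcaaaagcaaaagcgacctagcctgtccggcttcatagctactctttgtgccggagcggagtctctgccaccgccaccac

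The windows differed in base composition. GC content was 65.2% for Fzd7, 72.8% for Fzd4, 76.4% for Fzd5, 76.4% for Fzd9 and 51.2% for Fzd1, against a median of 52.4% over 32851 mouse promoters of the same length. CpG dinucleotides numbered 17, 25, 32, 42 and 12 in the same order, against a median of 6. Both strands were searched for the TCF/LEF words CTTTGAT and CTTTGAA, the CDX words TTTATTG and TTTATGG, the forkhead words TGTTTAC and TGTTTAT, and TATAAA, none of which holds another of these words. None of the 5 windows held a TCF/LEF, CDX or forkhead word, which were found in 7.48%, 6.51% and 7.10% of all promoters. Only the Fzd1 window held TATAAA, a word found in 12.4% of promoters, and its first base lay 202 bases before the start. A match or its absence describes these letters in this window only.

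Library depth and purity set what could be read from each group. Total counts, 1 transcript per gene, were 4368332 to 11167676 in Foxl1 positive, 1311205 to 13440838 in Foxl1 negative, 46415489 to 99628145 in Lgr5 positive and 79516088 to 80910717 in differentiated libraries. Genes with a count numbered 14332 to 14817 in Foxl1 positive but 1992 to 5966 in Foxl1 negative libraries. Of 10074 genes whose Foxl1 positive mean lay between 5.66 and 117 CPM (counts scaled to a common library size), 44.4% had no count in any Foxl1 negative library. Foxl1 itself had 2, 276 and 55 counts in Foxl1 positive replicates 1, 2 and 3, 1 and 0 counts in the differentiated replicates, and none in any Foxl1 negative or Lgr5 positive library. Lgr5 was at 269 and 375 CPM in Lgr5 positive libraries, at 83.3, 9.20 and 2.74 CPM in the Foxl1 positive ones, and at 0.438 and 0.518 CPM in differentiated ones. The tissue label names mesenchyme for every library, but mesenchyme markers summed to at most 10.1 CPM in Lgr5 positive and differentiated libraries. In Foxl1 positive replicates 1, 2 and 3, 6 epithelial markers summed to 2285, 2296 and 126 CPM and 7 mesenchyme markers to 6387, 3138 and 73497 CPM. In these bulk samples, fewer cells of a type and less RNA per cell cannot be told apart. The Foxl1 negative libraries shared a sequencing run and every other library had a run of its own, so run and group cannot be told apart in the comparison with Foxl1 negative cells.

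Frizzled transcripts were abundant in Foxl1 positive and epithelial libraries and nearly missing from Foxl1 negative ones. On the deposited per-length scale (FPKM, fragments per kilobase of transcript and per unit of library size), the 9 genes summed to 13.9, 14.5 and 35.2 in Foxl1 positive replicates 1, 2 and 3. The Lgr5 positive replicates gave 31.1 and 33.4 FPKM, and the differentiated ones 14.3 and 16.6. Foxl1 negative replicates gave 3.34, 0.173 and 0 FPKM, below every other library. Foxl1 positive libraries had counts for 8, 9 and 8 of the 9 genes, Lgr5 positive libraries for 9 and 9, and differentiated libraries for 9 and 8. Foxl1 negative libraries had counts for 1, 1 and 0 of them, and that gene was Fzd5.

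Each group drew its Frizzled transcripts from a different mix of genes. Of the Frizzled FPKM sum in the Lgr5 positive replicates, Fzd5 made up 43.2% and 37.7% and Fzd7 33.6% and 37.9%. In differentiated epithelium Fzd5 held 65.7% and 58.2%, Fzd7 17.4% and 16.3%, and Fzd4 10.4% and 20.4%. Fzd1 held 44.5%, 8.996% and 64.9% of the sum in Foxl1 positive replicates 1, 2 and 3, against 3.93% to 6.20% in Lgr5 positive and 2.00% to 2.18% in differentiated libraries. Fzd5 held 40.5% and 53.4% in Foxl1 positive replicates 1 and 2 but 0.0746% in replicate 3. The leading gene of the Foxl1 positive libraries was Fzd1 in replicates 1 and 3 and Fzd5 in replicate 2. Fzd2 held 7.56%, 20.4% and 9.95%, and Fzd1 and Fzd2 were the members above 7% of the sum in each of the 3 libraries.

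**Figure D1:**
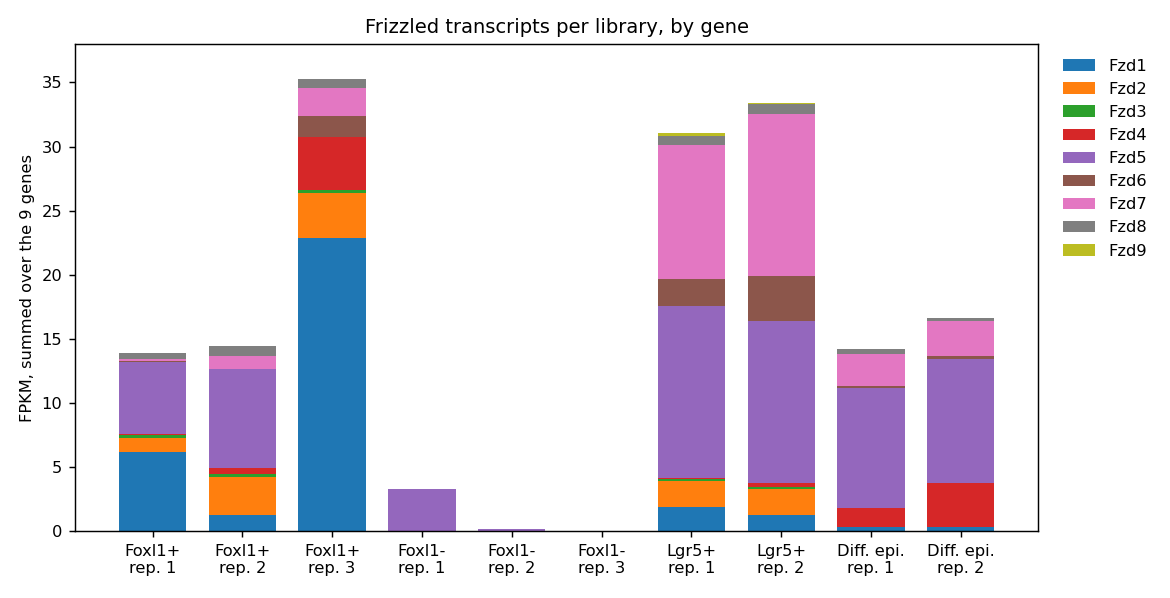
Bars give the deposited FPKM of Fzd1 to Fzd9 stacked for each library, in FPKM summed over the 9 genes. Fzd5 (purple) and Fzd7 (pink) fill most of both Lgr5 positive bars, Fzd1 (blue) fills 64.9% of the bar of Foxl1 positive replicate 3, and the Foxl1 negative bars reach at most 3.34.

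Within the Fzd1, Fzd2 and Fzd7 group, Fzd1 and Fzd2 were highest in Foxl1 positive cells and Fzd7 in Lgr5 positive cells. Levels are CPM, given as each library's value and as mean ± SD. Fzd1 (mm9 chr5:4753839-4758216, minus strand), which with Fzd2 is needed in mouse embryos for closure of the palate, was at 96.5, 20.4 and 235 CPM in Foxl1 positive replicates 1, 2 and 3 (117 ± 109, n = 3). Lgr5 positive cells had 14.2 and 9.59 CPM (11.9 ± 3.25, n = 2), and differentiated epithelium had 3.47 and 3.53 CPM (3.50 ± 0.0368, n = 2). In CPM the lowest Foxl1 positive library was above both Lgr5 positive ones, and these were above both differentiated ones. In FPKM that library, replicate 2, was at 1.30, below the Lgr5 positive ones at 1.93 and 1.31. The Foxl1 positive libraries themselves differed widely, with an SD close to the mean. Fzd2 (mm9 chr11:102465745-102469372, plus strand), a receptor for Wnt5a among other ligands, was at 13.6, 38.4 and 29.9 CPM in Foxl1 positive cells (27.3 ± 12.6, n = 3). It was at 12.2 and 11.9 CPM in Lgr5 positive cells (12.1 ± 0.186, n = 2) and at 0.0820 and 0.0986 CPM, from 3 and 4 counts, in differentiated epithelium. Foxl1 positive replicate 1 lay just above the Lgr5 positive pair in CPM, but below it in FPKM, at 1.05 against 2.00 and 1.97. The differentiated pair lay far below every Foxl1 positive and Lgr5 positive library. Fzd7 (mm9 chr1:59538991-59543799, plus strand), a receptor through which mouse crypt base stem cells respond to Wnt, was at 84.5 and 102 CPM in Lgr5 positive cells (93.1 ± 12.1, n = 2). Differentiated epithelium had 30.4 and 31.7 CPM (31.1 ± 0.913, n = 2), and Foxl1 positive cells had 3.10, 16.9 and 24.6 CPM (14.9 ± 10.9, n = 3). The order of Fzd7 was Lgr5 positive, differentiated, Foxl1 positive, with no overlap between neighbours.

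In CPM, Fzd5 and Fzd8 differed little between the epithelial groups. Fzd5 (mm9 chr1:64777132-64784324, minus strand), which in the mouse crypt is needed for maturation of Paneth cells, was at 154 and 143 CPM in Lgr5 positive cells (148 ± 7.40, n = 2). Differentiated epithelium had 162 and 159.8 CPM (161 ± 1.84, n = 2), and the gene was at 137, 188 and 0.421 CPM in Foxl1 positive cells (108 ± 97.1, n = 3), where replicate 3 had 2 counts. In Foxl1 negative cells it was at 88.3, 4.12 and 0 CPM, from 146, 31 and 0 counts. In CPM, Foxl1 positive replicates 1 and 2 thus sat at the level of the epithelium, while replicate 3 sat near the bottom of the range. In FPKM, Fzd5 was at 13.4 and 12.6 in Lgr5 positive cells, above the 9.36 and 9.69 of differentiated epithelium. Foxl1 positive replicates 1 and 2, at 5.64 and 7.72 FPKM, lay below both. The table lists 2 transcripts of Fzd5 that share nearly all their reads, and 1 of them stands for the gene. Fzd8 (mm9 chr18:9212854-9216199, plus strand), whose mouse cysteine-rich domain was used to solve the structure of a Wnt bound to its receptor, was at 5.74, 8.98 and 5.05 CPM in Foxl1 positive cells (6.59 ± 2.10, n = 3). Lgr5 positive cells had 4.27 and 4.14 CPM (4.21 ± 0.0920, n = 2), and differentiated epithelium had 3.45 and 2.05 CPM (2.75 ± 0.990, n = 2). Its groups did not overlap in CPM, but they lay close together compared with those of Fzd2 or Fzd7. In FPKM the Foxl1 positive libraries, at 0.4825 to 0.749, overlapped the Lgr5 positive ones, at 0.759 and 0.743.

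Fzd3 and Fzd6, which in mice act in planar polarity, with Fzd3 guiding axons and Fzd6 orienting hair, had different leading groups. Fzd3 (mm9 chr14:65811278-65881300, minus strand) was at 11.7, 10.8 and 7.79 CPM in Foxl1 positive cells (10.1 ± 2.05, n = 3) and at 4.07 and 3.33 CPM in Lgr5 positive cells (3.70 ± 0.521, n = 2). In differentiated epithelium it was at 0.0273 and 0.0740 CPM, from 1 and 3 counts. Fzd3 was the most even of the Frizzled genes across the 3 Foxl1 positive libraries, with an SD well below the mean. Fzd6 (mm9 chr15:38837879-38869736, plus strand) was at 14.1 and 23.8 CPM in Lgr5 positive cells (19.0 ± 6.90, n = 2) with 2.05 and 2.37 CPM (2.21 ± 0.223, n = 2) in the differentiated libraries. It was at 0.310, 0.673 and 16.0 CPM in Foxl1 positive cells (5.66 ± 8.95, n = 3). Foxl1 positive replicate 3 lay inside the Lgr5 positive range, and replicates 1 and 2 lay below differentiated epithelium. The table lists 2 transcripts of Fzd6 with identical counts, and 1 of them stands for the gene.

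Fzd9 had at most 42 counts in any library. Fzd4 had its highest group mean in differentiated epithelium, as Fzd5 did in CPM but not in FPKM. Fzd4 (mm9 chr7:96552876-96558620, plus strand), the receptor for norrin in blood vessels of the retina as well as a Wnt receptor, had 13.9 and 30.3 CPM (22.1 ± 11.6, n = 2) in that group. It was at 0.463 and 2.03 CPM in Lgr5 positive cells (1.25 ± 1.11, n = 2), from 23 and 216 counts, and at 1.09, 5.72 and 35.3 CPM in Foxl1 positive cells (14.1 ± 18.6, n = 3). The Foxl1 positive libraries spread over the whole range, from inside the Lgr5 positive values to above the differentiated ones. Fzd9 (mm9 chr5:135724808-135726917, minus strand), which promotes bone formation in mice, had 38 and 42 counts in Lgr5 positive cells (0.766 and 0.394 CPM). It had 2 and 0 counts in differentiated epithelium and 0, 3 and 0 in Foxl1 positive cells. In Foxl1 negative cells all 8 genes other than Fzd5 had no count in any of the 3 libraries, which allows a group mean of up to 0.0976 CPM at a limit of 3 counts over the group. In Foxl1 negative replicate 1 alone, the shallowest library, 3 counts are 1.81 CPM, so low levels such as those of Fzd9 were not detectable there. No other gene of the table overlapped any of the 9 genes.

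**Figure D2:**
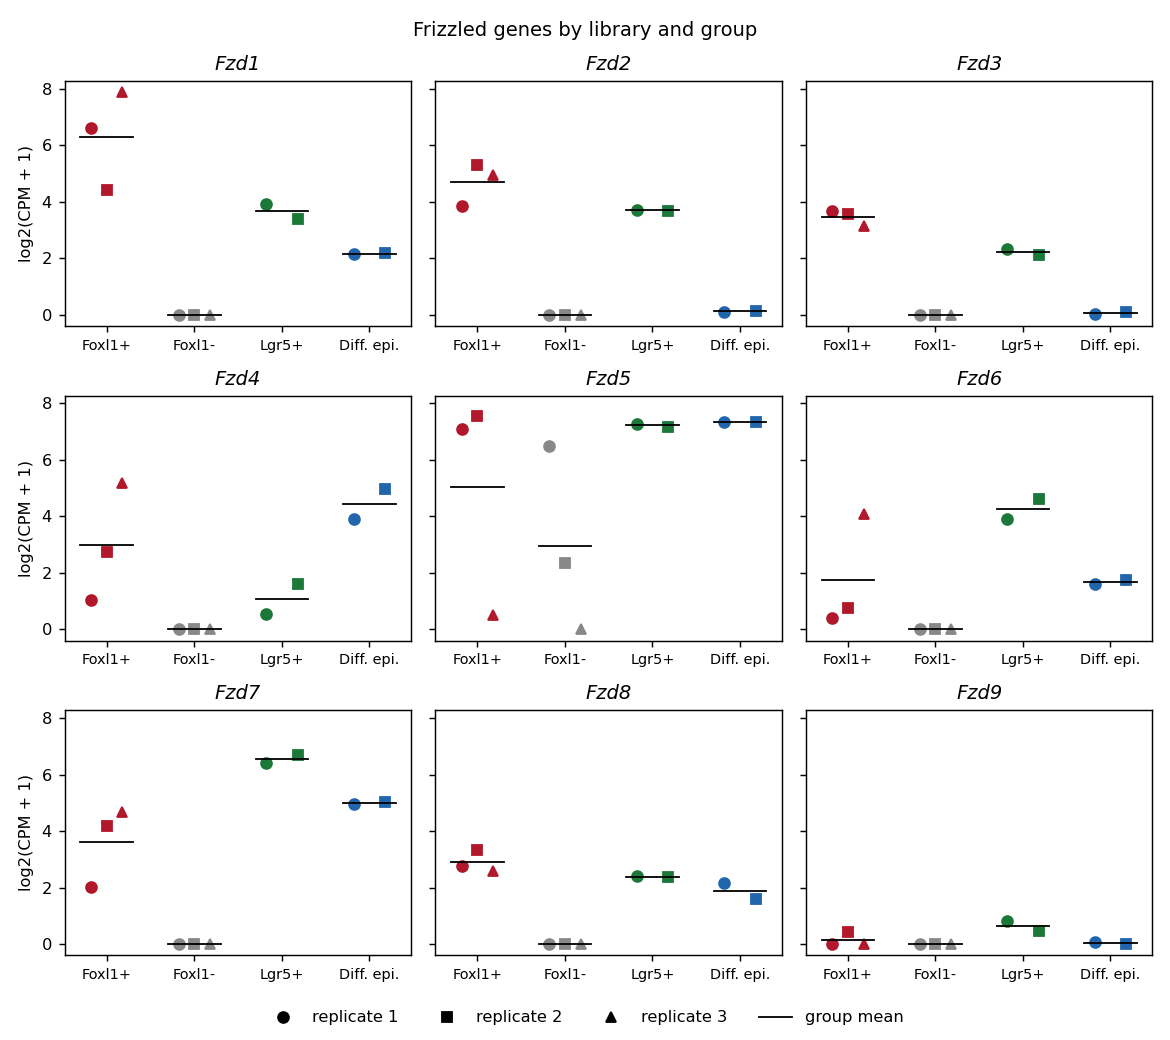
Each panel plots 1 Frizzled gene as log2(CPM + 1) on the vertical axis for the 4 groups, with a marker per library by replicate number and a line at the group mean of the plotted values. Fzd1, Fzd2 and Fzd3 descend from Foxl1 positive to Lgr5 positive to differentiated epithelium, Fzd7 and Fzd6 have their highest mean in Lgr5 positive cells, and Fzd5 is level except in Foxl1 positive replicate 3 and the Foxl1 negative cells.

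Between Lgr5 positive cells and differentiated epithelium, 6 Frizzled genes were higher and 1 was lower in Lgr5 positive cells. All 9 genes passed the filter on low counts. Fzd2, Fzd3 and Fzd9, with 7, 4 and 2 counts in differentiated cells, passed it through the Lgr5 positive libraries, so a call of them could only be higher. The 6 of 9 higher calls stand beside 34.4% of all 14534 genes tested, and the 1 of 9 lower calls beside 31.9%. In either direction 77.8% of the Frizzled genes and 66.3% of all genes were called, so a call as such was common here. Differences are log2 fold changes of Lgr5 positive over differentiated cells ± SE, from edgeR's quasi-likelihood test with Benjamini-Hochberg adjustment over all genes. Fzd2 rose by 7.02 ± 0.54 (adjusted p = 2.64e-05), a 133-fold difference of means. Fzd3 rose by 6.11 ± 0.74 (adjusted p = 0.000193), 73.1-fold, and without differentiated replicate 2 by 6.96. Both ratios rest on 7 and 4 counts in the differentiated group, so their size is loosely fixed even though both Lgr5 positive libraries lay above both differentiated ones. Fzd6 rose by 3.10 ± 0.43 (adjusted p = 0.000364), 8.59-fold. Fzd1 rose by 1.77 ± 0.40 (adjusted p = 0.00467), 3.40-fold, and Fzd7 by 1.59 ± 0.29 (adjusted p = 0.00147), 2.997-fold. Fzd7 had the smallest fold of the called genes but the largest count behind it, 4195 and 10823 reads against 1112 and 1286. Fzd9 was higher by 4.35 ± 1.18 (adjusted p = 0.0112), but rests on 2 counts in differentiated cells. Without differentiated replicate 2 it was 3.33 with an edgeR adjusted p of 0.167, and without replicate 1 it was 8.26.

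Fzd4 went the other way. It was lower in Lgr5 positive cells by a log2 change of -4.12 ± 0.73 (edgeR adjusted p = 0.00130), a 17.8-fold difference of means. Leaving out 1 library moved this between -5.56, without Lgr5 positive replicate 2, and -3.48, without Lgr5 positive replicate 1, and it stayed past the threshold. Tspan12, a membrane protein that assists norrin signalling through Fzd4, moved opposite to its receptor, at 189 ± 53.6 CPM in Lgr5 positive and 7.29 ± 3.43 CPM in differentiated cells (n = 2 each), a log2 change of 4.70 ± 0.45 (edgeR adjusted p = 6.15e-05). Fzd5 and Fzd8 did not pass the threshold. The log2 change of Fzd5 was -0.12 ± 0.27 (edgeR adjusted p = 0.716), with a 95% interval of -0.73 to 0.50. That of Fzd8 was 0.62 ± 0.46 (edgeR adjusted p = 0.261), with an interval of -0.44 to 1.68. In a fit of all 10 libraries, which takes in the wide spread of the Foxl1 negative ones, no gene was called in this comparison, so the calls rest on the spread within 2 pairs of libraries.

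**Figure D3:**
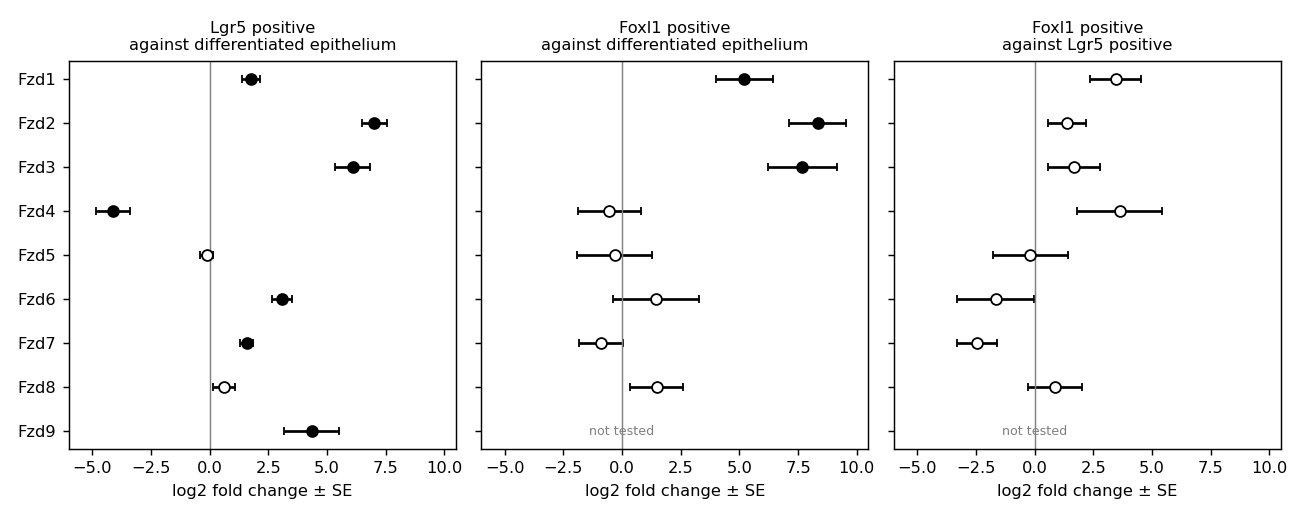
Points give the log2 fold change of each Frizzled gene ± SE in 3 comparisons, filled where the edgeR adjusted p was under 0.05 and open where it was not. In Lgr5 positive against differentiated cells 7 points are filled, with Fzd4 alone below 0, in Foxl1 positive against differentiated cells Fzd1, Fzd2 and Fzd3 are filled, and in Foxl1 positive against Lgr5 positive cells none is.

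Among the partners of the receptors, 34 of 50 genes tested (68.0%) were called in either direction between Lgr5 positive cells and differentiated epithelium, a share close to the 66.3% of all genes. Of 4 genes of Frizzled turnover tested, all 4 were higher in Lgr5 positive cells: Lgr5, which the sort selected, Znrf3, Lgr4 and Rnf43. Znrf3, which removes Frizzled from the surface, was at 47.7 ± 8.40 against 2.08 ± 0.544 CPM (log2 change 4.52 ± 0.40). Of 5 co-receptors tested, 2 were higher and 1 lower, with Ror2 at 5.09 ± 0.51, Ptk7 at 4.21 ± 0.47 and Lrp5 at -2.02 ± 0.31 on the log2 scale. Of 14 genes of the Dishevelled and beta-catenin branch, 2 were higher and 4 lower. Tcf7, a transcription factor that partners beta-catenin, and Axin2, a feedback inhibitor, were higher by 3.04 and 1.79, and Gsk3a, a kinase of the destruction complex, was at -2.76. Of 10 planar cell polarity genes, 5 were higher and 2 lower, and among them the cadherins Celsr2 and Celsr1 were higher by 5.85 and 2.90 and Celsr3 was at -2.90. Of 4 secreted inhibitors tested, Sfrp5, a soluble Frizzled-related protein, was higher by 5.28 and the other 3 were lower, led by Notum, an enzyme that inactivates Wnt, at -5.47. Of 8 Wnt ligands, 2 were higher and 3 lower, and the 3 with the smallest p were Wnt4 at -7.01, Wnt3 at 3.01 and Wnt5b at 3.29. Of 4 relatives and maturation factors, 3 were higher and 1 lower, among them Smo, the Frizzled-like transducer of Hedgehog, at 7.24 ± 0.51, Shisa2, which holds immature Frizzled back in the cell, at 5.19, and Shisa5 at -1.95. Some of these genes passed the filter through 1 group only. Wnt4 and Notum, at 0.0685 and 0.0604 CPM in Lgr5 positive cells, could only be called lower. Celsr2, Wnt5b, Smo and Ror2, at 0.207 to 0.369 CPM in differentiated cells, could only be called higher. The same holds for Fzd10, the remaining higher relative, which had no count in differentiated cells. The median log2 change was 1.77 over the 9 Frizzled genes and 0.12 over all genes tested.

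Foxl1 positive cells had higher Fzd1, Fzd2 and Fzd3 than differentiated epithelium, and no Frizzled gene was called lower. The 3 of 8 genes tested that were higher stand beside 10.6% of all 13876 genes, and the 0 lower beside 7.19%. Both edgeR at an unadjusted p under 0.05 and DESeq2 also gave 0 lower Frizzled genes. Fzd2 rose by 8.34 ± 1.20 (edgeR adjusted p = 0.0151), 302-fold between means. Fzd3 rose by 7.69 ± 1.48 (edgeR adjusted p = 0.0240), 199-fold, and by 8.28 without differentiated replicate 2. Fzd1 rose by 5.22 ± 1.20 (edgeR adjusted p = 0.0348), 33.5-fold, and by 4.16 without Foxl1 positive replicate 3. All 3 Foxl1 positive libraries lay above both differentiated ones for these genes. Fzd2 and Fzd3, with 7 and 4 counts in differentiated cells, passed the filter through the Foxl1 positive libraries, so a call of them could only be higher. The other 5 genes tested, Fzd4, Fzd5, Fzd6, Fzd7 and Fzd8, had log2 changes of -0.54 ± 1.33, -0.31 ± 1.61, 1.44 ± 1.83, -0.90 ± 0.93 and 1.47 ± 1.11, with edgeR adjusted p between 0.355 and 0.900. Their 95% intervals were wide, for example -4.16 to 3.53 for Fzd5, and Fzd9 did not pass the filter. Leaving out Foxl1 positive replicate 3 took Fzd6 to -2.06, Fzd5 to 0.12, Fzd4 to -2.59 and Fzd7 to -1.51, and Fzd4 was at 0.024 without differentiated replicate 2. Without Foxl1 positive replicate 1, Fzd1 had an adjusted p of 0.0623, and without either differentiated replicate or in a fit of all 10 libraries none of the 3 genes was called.

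Around these receptors, edgeR called 17 of 52 other Wnt genes tested (32.7%) in either direction, beside 17.8% of all genes. Among the called, Rspo3 and Shisa3 had no count in differentiated cells. Sfrp1, Dkk3, Frzb, Shisa4 and Prickle1 had means of at most 0.0890 CPM there. Smo, Ror2, Wnt2b, Wnt5a and Ptk7 had means of 0.290 to 0.776 CPM there, and Vangl1 and Prickle2 of 1.55 and 1.57 CPM. These entered the test through the Foxl1 positive libraries, so a call of them could only be higher, and the share is a description. Of 6 Wnt ligands tested, 2 were higher in Foxl1 positive cells, Wnt5a by 6.95 and Wnt2b by 6.63 on the log2 scale. Of 6 co-receptors, Ror2, which pairs with Frizzled for Wnt5a, and Ptk7 were higher, by 6.26 and 5.58. Of 4 secreted inhibitors, 3 were higher, namely Dkk3, Sfrp1 and Frzb, the last 2 being soluble proteins with a Frizzled-like Wnt-binding domain, at 12.28, 13.86 and 8.23. Of 6 turnover genes edgeR called 1 higher, Rspo3, where DESeq2 called 5, and 4 of 10 planar cell polarity genes were higher, among them Prickle1 at 8.84, Prickle2 at 5.32 and Vangl1 at 4.82. Of 14 genes of the beta-catenin branch, edgeR called 2 lower, Dvl1 at -3.79 and Gsk3a at -2.76, and none higher, with 3 higher at an unadjusted p under 0.05, while DESeq2 called 3 higher and 3 lower. Of 5 relatives, Smo, Shisa3 and Shisa4 were higher. The median log2 change was 1.46 over the 8 Frizzled genes tested and 0.32 over all genes, and without either differentiated replicate no gene at all was called.

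Foxl1 positive and Lgr5 positive cells did not differ past the threshold in any Frizzled gene. Of 8 genes tested, 0 were called higher and 0 lower, beside 4.84% and 0.884% of all 14259 genes. At an unadjusted p under 0.05 edgeR had 1 higher, Fzd1, and 1 lower, Fzd7, while DESeq2 called 2 higher, Fzd1 and Fzd4. Fzd1 had a log2 change of 3.45 ± 1.08 (edgeR adjusted p = 0.107, 95% interval 0.87 to 6.03), with means 9.87-fold apart. Fzd7 had -2.47 ± 0.85 (edgeR adjusted p = 0.128, 95% interval -4.52 to -0.43), with means 6.25-fold apart. For both genes the Foxl1 positive libraries did not overlap the Lgr5 positive ones in CPM, but those of Fzd1 did in FPKM. The log2 change of Fzd1 was 2.58 without Foxl1 positive replicate 3. Fzd4 had 3.62 ± 1.82, Fzd3 1.67 ± 1.09, Fzd2 1.38 ± 0.81 and Fzd8 0.88 ± 1.16, with edgeR adjusted p from 0.260 to 0.681. The value of Fzd4 was 1.74 without Foxl1 positive replicate 3, 2.88 without Lgr5 positive replicate 1 and 4.95 without Lgr5 positive replicate 2. Fzd6 had -1.65 ± 1.64 (edgeR adjusted p = 0.576) and was called lower, at -4.99, when Foxl1 positive replicate 3 was left out. Fzd5 had -0.18 ± 1.60 (edgeR adjusted p = 0.956, 95% interval -4.01 to 3.65) and 0.41 without that library. Of the other Wnt genes, 3 of 7 ligands (Wnt5a, Wnt4 and Wnt2b), 2 of 5 secreted inhibitors (Sfrp1 and Dkk3), 2 of 10 planar cell polarity genes (Daam2 and Prickle2) and 1 of 5 relatives (Shisa5) were called higher in Foxl1 positive cells. By edgeR no call was made among 6 co-receptors, 6 turnover genes and 14 genes of the beta-catenin branch, where 1, 2 and 3 were higher and 0, 0 and 1 lower at an unadjusted p under 0.05. DESeq2 called 1, 3 and 3 of these higher and 0, 0 and 1 lower. Of the Wnt genes that edgeR called higher here, Wnt4, Sfrp1 and Dkk3 had means of at most 0.107 CPM in Lgr5 positive cells. Wnt5a and Wnt2b were at 0.889 and 0.931 CPM there. These genes passed the filter through the Foxl1 positive libraries, so a call of them could only be higher. The median log2 change was 1.13 over the 8 Frizzled genes and 0.06 over all genes.

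Between Foxl1 positive and Foxl1 negative cells, the family differed mainly in whether it was counted at all. Of the 9 genes, 6 passed the filter on low counts, and 5 of these (Fzd1, Fzd2, Fzd3, Fzd7 and Fzd8) had no count in any Foxl1 negative library. These 5 entered the test through the Foxl1 positive libraries alone, so they had to differ, and that edgeR called the 5 of 6 higher is a description that supports nothing about the family. Of all 11204 genes tested, edgeR put 42.2% past the threshold as higher and 0% as lower, so a higher call was common in this comparison. At an unadjusted p under 0.05, 7 genes were lower, and DESeq2 called 59 lower. Against the limit of 3 counts over the group, Fzd1 was at least 1202-fold higher, Fzd2 at least 279-fold, Fzd7 at least 152.5-fold, Fzd3 at least 103-fold and Fzd8 at least 67.5-fold. These bounds rest largely on Foxl1 negative replicate 3, the deepest of that group. Without it the limit was 0.327 CPM, and the bounds were 359-fold for Fzd1, 83.4-fold for Fzd2, 45.5-fold for Fzd7, 30.8-fold for Fzd3 and 20.1-fold for Fzd8. The bound of Fzd1 was 599-fold without Foxl1 positive replicate 3. Fzd5, the gene with counts in both groups, had a log2 change of 2.64 ± 2.96 (edgeR adjusted p = 0.655, 95% interval -4.29 to 9.57), and 6.57 without Foxl1 negative replicate 1. Fzd4, Fzd6 and Fzd9 did not pass the filter. Of 22 genes of the other Wnt lists that edgeR called, all as higher, 18 had no count in any Foxl1 negative library. Gsk3b, Rnf43, Ptk7 and Lrp6 had counts in both groups, with Foxl1 negative means of 1.14, 0.0887, 0.0155 and 0.0444 CPM. For Rnf43, Ptk7 and Lrp6 that lay under the limit of 0.0976 CPM. All 22 entered the test through the Foxl1 positive libraries, so a call of them could only be higher.

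Some markers of other cells also set single Foxl1 negative libraries apart. In replicate 1, 3 hepatocyte markers summed to 45030 CPM, with Alb at 35872 and Ttr at 2725 CPM. Differentiated epithelium had a sum of 22884 to 34563 CPM, but this was nearly all Apoa1, at 34559 and 22882 CPM. Alb was at 0.930 and 0.394 CPM there. Of 3 erythroid markers, 2 were counted in Foxl1 negative replicate 1, at 9680 CPM. In Foxl1 positive libraries the hepatocyte sum was 12.4 to 467 CPM and the erythroid sum 4.94 to 18.5 CPM. Smooth muscle markers summed to 109, 4581 and 0.788 CPM in Foxl1 negative replicates 1, 2 and 3, and replicate 2 lay inside the Foxl1 positive range of 349 to 7751 CPM. Replicate 3 had 2656 CPM over all 4 B cell markers, which summed to at most 33.4 CPM in any other library. No Foxl1 negative library had a count of the macrophage markers or of those of enteric glia and neurons. The part of these markers and of the low number of detected genes in the Frizzled zeros was not tested.

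Several Frizzled genes moved across the Foxl1 positive libraries along with markers of other cells. Fzd5 was at 137 and 188 CPM in replicates 1 and 2, where the epithelial gene Cdh1 was at 604 and 477 CPM, and at 0.421 CPM in replicate 3, where Cdh1 was at 20.4 CPM. All 6 epithelial markers had counts in each of the 3 libraries. Fzd1, Fzd4 and Fzd6 were highest in replicate 3, at 235, 35.3 and 16.0 CPM, where the 7 mesenchyme markers summed to 73497 CPM and 4 endothelial markers to 705 CPM. In replicates 1 and 2 the endothelial sum was 109 and 177 CPM. In replicates 1, 2 and 3 Kdr was at 3.41, 44.4 and 280 CPM, Tek at 2.64, 17.2 and 152 CPM and Cdh5 at 12.3, 35.0 and 35.3 CPM. That is the order of Fzd4, though Cdh5 was level between replicates 2 and 3. The remaining marker, Pecam1, had another order, at 90.7, 80.6 and 237 CPM. Foxl1 negative libraries had mesenchyme sums of 6436 to 12230 CPM without a count of Fzd1. Their epithelial sums were 593, 6424 and 350 CPM in replicates 1, 2 and 3, with Fzd5 at 88.3, 4.12 and 0 CPM. Fzd5 thus did not follow the epithelial sum there, and Cdh1 had 0, 0 and 1 counts. The 5 smooth muscle markers summed to 1235, 349 and 7751 CPM in Foxl1 positive replicates 1, 2 and 3, the same order as Fzd1. The 4 T cell markers summed to 398, 407 and 11.4 CPM, the same order as Fzd5, and 3 Paneth cell markers to 4617, 544 and 49.2 CPM. In differentiated epithelium Fzd4 was at 13.9 and 30.3 CPM while the endothelial markers summed to 2.84 and 4.59 CPM. The part of these marker differences in the Frizzled levels was not tested, and the reporter also set replicate 3 apart.

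**Figure D4:**
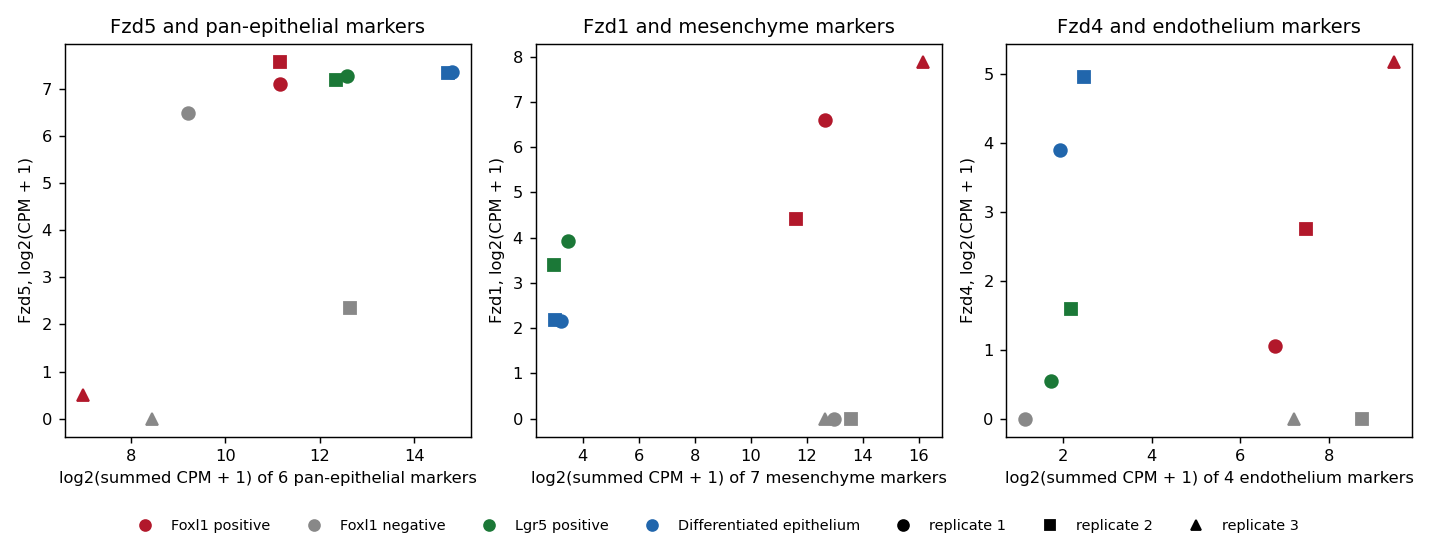
Each panel plots 1 Frizzled gene, as log2(CPM + 1), against the summed level of a marker list, as log2(summed CPM + 1), with 1 point per library coloured by group and shaped by replicate. Foxl1 positive replicate 3 has the lowest epithelial sum beside 0.421 CPM of Fzd5 and the highest mesenchyme and endothelial sums beside the highest Fzd1 and Fzd4 values.

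The profiles of the members and their nearest genes were compared over the 10 libraries by the root mean square difference of log2(CPM + 1) values, each gene centred on its own mean. Among the 8 members with a group mean of at least 5 CPM, Fzd2 and Fzd3 were closest, at 0.782, and Fzd3 and Fzd8 followed at 0.865. Fzd5 was the farthest from the rest, at 2.58 to 3.74. Members of a sequence group were not always near each other, with Fzd7 at 2.31 from Fzd2 and 2.51 from Fzd1, and Fzd3 at 1.82 from Fzd6. Among 14098 genes, those nearest Fzd7 were Mrps9 at 0.185 and Mccc2 at 0.301. Those nearest Fzd1 were Flot2 at 0.449 and Rab23 at 0.450, those nearest Fzd2 were Ttc21b at 0.413 and Angpt2 at 0.443, and those nearest Fzd3 were A630089N07Rik at 0.310 and Hoxb7 at 0.370. Fzd4 was nearest to Mfsd7c at 0.434 and Slc41a3 at 0.511, Fzd6 to Fpgs at 0.319 and Mthfd2l at 0.350, and Fzd8 to Zfp3 at 0.271 and E130311K13Rik at 0.278. Fzd5 had no gene as close, with Slc4a4 at 0.880 and A1cf at 1.00. These are descriptions over libraries that share groups and depth, and Fzd5 and its neighbours apart, the named genes have no count in any Foxl1 negative library.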

How the data were processed

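The authors deposited raw counts of reads per transcript and, separately, FPKM values, with a flag for 1 representative transcript of each gene, which stood for the gene here. The build was mm9 and the tools CASAVA 1.8.2 and edgeR, per the submitters' processing notes. Aligner, counter and strand use were not given in the sources used here. Cells were freed with dispase and trypsin and sorted, per the labels' protocols.

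CPM were computed with TMM scaling (trimmed mean of M values) over all 10 libraries. The deposited FPKM, not scaled in this way, were used for shares within a library. Each comparison was fitted on the libraries of its groups alone in R 4.3.3 with edgeR 4.0.16 (filterByExpr, TMM, robust glmQLFit, glmQLFTest, 2-sided, adjusted p under 0.05). Groups alone were used with knowledge that a fit of all 10 libraries made no call in the comparisons with epithelium. SE is the log2 fold change over the square root of F, and 95% intervals use edgeR's degrees of freedom. Alternatives were DESeq2 1.42.0, limma 3.58.1 on log2(FPKM + 1), other scaling, filters and transcripts, a replicate block and each library left out. The fits were also run on simulated counts with the same spread for every gene. The Foxl1 negative libraries differ far more among themselves, so that run does not show how the fits perform on these data. The members and gene lists were chosen with earlier results of these data known. Fzd1 to Fzd9 were named throughout, with up to 3 genes of each Wnt list by smallest p and the 2 nearest profiles of each member with a group mean of at least 5 CPM. Gsk3b, Rnf43, Ptk7 and Lrp6 were named together after their counts in both mesenchymal groups were seen. Fzd10 was named after its lack of counts in differentiated cells was seen. The 3 animals of the mesenchymal sorts are not assigned to libraries, so p-values reflect variation among these libraries, which may be technical. No library was a copy of another of its group, with a chi-square per degree of freedom of 148 or more between replicates. A count of 0 is given a limit of 3 counts, which covers counting error only, since reads carry no molecular identifiers.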

Additional observations from a re-analysis of the deposited data

How the results depend on the processing

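Between Lgr5 positive and differentiated cells the 7 Frizzled calls held under median-of-ratios scaling, no filter, DESeq2, the highest-count transcript and every library left out, except that Fzd9 was not called without differentiated replicate 2. With limma on filtered FPKM the calls there were Fzd1, Fzd2, Fzd6 and Fzd7 higher and Fzd4 lower, while Fzd3 and Fzd9 did not pass that filter, and with unfiltered FPKM Fzd8 was called higher beside the 7, at 0.40 (limma adjusted p = 0.0385). Over all members, 355 log2 fold changes kept their direction and side of the threshold, 29 lost the call, 10 gained one and 12 changed sign, and the cause was not tested. In 1 fit of all 10 libraries the 3 comparisons with epithelium gave 0 calls over all genes and 0 Frizzled calls, with 2244, 2870 and 1677 genes at an unadjusted p under 0.05. Among Frizzled genes, limma on log2(FPKM + 1), on log2(FPKM + 0.1) and without a filter called in the Foxl1 positive comparisons 2, 2 and 3 higher against Foxl1 negative cells, 1, 1 and 1 lower (Fzd7) against Lgr5 positive cells and 1, 1 and 1 higher against differentiated epithelium. DESeq2 called 2 higher against Lgr5 positive cells. Over all genes, Foxl1 positive against Foxl1 negative cells gave 4723 calls, 2645 with limma without a filter and 4827 to 8240 with 1 library left out, the highest without Foxl1 negative replicate 3. Foxl1 against Lgr5 positive cells gave 816 calls, 3698 with DESeq2, 3633, 2631 and 2426 with limma in the order above, and 0 to 3304 with 1 library left out, being 0 except without Foxl1 positive replicate 3. Foxl1 positive against differentiated cells gave 2465 calls, 5845 with DESeq2, and 0 to 6242 with 1 library left out, being 0 without either differentiated replicate, 1363 and 1562 without Foxl1 positive replicates 1 and 2 and highest without replicate 3. With 1 library left out, Frizzled calls against Lgr5 positive cells were 0 to 1 lower, and against differentiated epithelium 0 to 3 higher. Where this left 1 library in a group, that library was assumed to vary like the other group. The share of calls that were higher was 84.6% on counts and 13.2% on log2(FPKM + 1) for Foxl1 against Lgr5 positive cells, 59.5% and 20.7% for Foxl1 positive against differentiated cells, and 51.9% and 63.1% for Lgr5 positive against differentiated cells. The medians of all genes were 0.06 and -1.09, 0.32 and -0.58, and 0.12 and 0.49, and with median-of-ratios scaling 0.26, 0.30 and -0.0010, while between the mesenchymal groups counts gave 3.47 and that scaling 3.21. These changed sign without being called: Fzd5 between Lgr5 positive and differentiated cells, at 0.41, 0.45 and 0.41 on FPKM; Fzd8 between Foxl1 and Lgr5 positive cells, at -0.11 on unfiltered FPKM; and, with 1 library left out, Fzd5 against Lgr5 positive cells (-0.82 to 0.41) and, against differentiated epithelium, Fzd4 (-2.59 to 0.024), Fzd5 (-0.96 to 0.12) and Fzd6 (-2.06 to 2.00).

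Replicate numbers were not treated as pairs in the main fits. Deviations of same-numbered libraries correlated across genes at 0.022, 0.0019 and 0.045 between the mesenchymal groups. The values were -0.0090 and 0.028 between Foxl1 and Lgr5 positive cells, and -0.14 and 0.092 between Foxl1 positive and differentiated cells. Between Lgr5 positive and differentiated cells they were 0.28 and 0.28. With 2 libraries in each group these have to be equal, so they are a single value. Whether those libraries were paired cannot be decided from it. The fit with a replicate block called 0 genes and 0 Frizzled genes between the mesenchymal groups (4301 genes and 5 Frizzled genes at an unadjusted p under 0.05), 3234 genes with 1 Frizzled gene higher and 2 lower between Foxl1 and Lgr5 positive cells, and 4763 genes between Foxl1 positive and differentiated cells. With the block, Fzd5 changed sign to 0.39 against Lgr5 positive and 0.25 against differentiated cells, and Fzd6 to -1.99 against differentiated cells. Depth limits low genes most in the Foxl1 negative libraries.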
